A study of Boehmeria nivea with 2 samples.

Results

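The unigenes of photosynthetic carbon fixation in ramie leaves, those of the Calvin cycle and of photorespiration, were examined in plants with and without larvae of the ramie moth (RM). A unigene is a transcript assembled from the reads without a genome. A unigene belonged to the set when its Swiss-Prot protein name, before the gene symbol and species, contained 1 of 14 search words, such as ribulose, rubisco, transketolase or glyoxylate. The rule found 172 of 46,533 unigenes and used no expression value. Unigenes named below are given by the identifier of the assembly and by the protein of another species that they matched best.

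Both libraries came from leaves of the ramie cultivar Chuanzhu No.8, which the study rates as moderately resistant to RM. Plants were 30 days old, and in the CH group larvae starved for 12 h were placed on the fourth leaf from the apex, while the CK group carried no larvae. The topmost undamaged leaves were taken at 12, 24, 48 and 72 h, so the leaves measured were not those on which the larvae had been placed. Leaves of 5 plants were pooled at each time point and the RNA of the 4 time points was mixed in equal parts, which gave 1 library per group. The title of the CK sample calls it mock-challenged, whereas its protocol describes plants without a challenge.

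The Calvin cycle fixes carbon dioxide in the chloroplast stroma. Rubisco joins the gas to ribulose-bisphosphate, a kinase and a dehydrogenase reduce the product to triose phosphate, and further enzymes rebuild the acceptor. Rubisco also reacts with oxygen, and photorespiration returns the resulting phosphoglycolate to the cycle through the chloroplast, the peroxisome and the mitochondrion. In leaves these enzymes are among the most abundant proteins, and their transcripts are correspondingly plentiful.

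Levels are given as deposited RPKM, a read count scaled to the length of the unigene and to the size of the library. A log2 value compares the RPKM of CH with that of CK and is negative where CH was lower. A fold is the ratio of reads per library total, followed by its exact 95% Clopper-Pearson interval, which covers counting error only. A unigene was called, and is said to have risen or fallen, when 2 criteria were met. Its reads had to differ by the Audic-Claverie test, 2-sided, at an adjusted p below 0.01 over every unigene with a read, and the levels had to be 2-fold apart or more. With 1 library per group, no difference has a replicate check, and what the test compares is a pair of libraries rather than the conditions. In such bulk leaf samples, fewer cells of a type and less RNA per cell cannot be told apart.

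Carbon-fixation transcripts took up a far smaller part of the CH library than of the CK library. The 172 unigenes held 6.33% of the counted reads in CK (1,126,096 reads) and 2.40% in CH (647,659 reads). The exact 95% intervals of these shares ran from 6.32% to 6.34% and from 2.398% to 2.410%. Without the rubisco chains and rubisco activase, which alone held the larger part of these reads in CK, the shares were 2.401% and 1.055%. Every role had a smaller share in CH, as the stacked plot of library shares shows. In relative terms the gap was widest for the reduction step, at 0.832% in CK and 0.201% in CH, and for the rubisco chains, at 1.455% and 0.353%. It was smaller for photorespiration and related enzymes, at 0.796% and 0.413%, and smallest for the forms that work outside the chloroplast, at 0.151% and 0.103%.

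**Figure D1:**
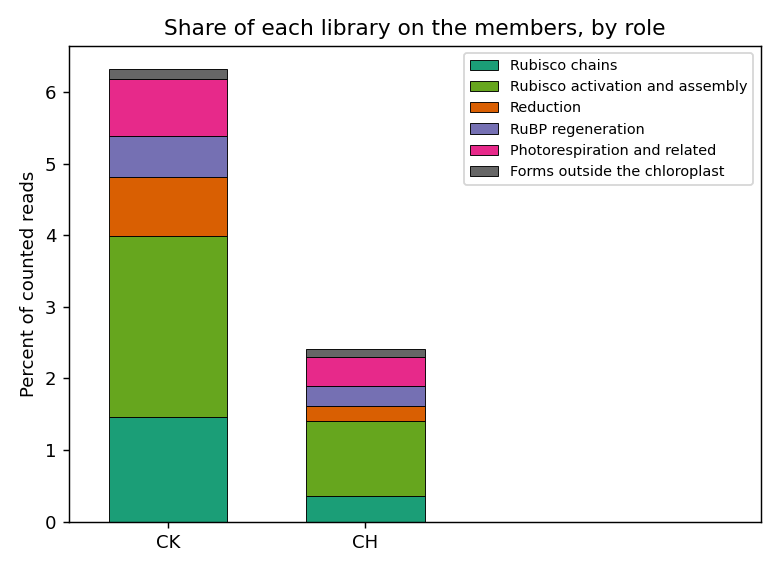
Share of the counted reads of each library on the 172 unigenes, in percent, stacked by role, with 1 bar per library. The bar of CK reaches 6.33% and that of CH 2.40%, and each of the 6 roles is thinner in CH.

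Of the 172 unigenes, 160 had at least 1 read and 12 had none. Among the 160, 19 fell in CH and 0 rose, that is 11.9% lower, against 4.28% lower and 2.48% higher among all 43,302 unigenes with a read. The 38 members with at least 1,000 reads over both libraries, a limit chosen after the values were seen, held nearly all reads of the set. Of these, 13 fell, or 34.2%, against 6.56% lower and 3.73% higher among all 7,322 unigenes with as many reads. Their median log2 value was −0.66, and that of the 7,322 was 0.06. The log2 value lay below 0 for 33 of the 38. The counting interval lay wholly below a ratio of 1 for 30 of them, wholly above it for 4 and across it for 4.

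The calls depend on how much unreplicated libraries are assumed to vary. When edgeR was run with a coefficient of variation between libraries set at 0.2, 5 members kept the lower call, and with 0.4 only 1 did. Those 5 were the most abundant rubisco small chain, glyceraldehyde-3-phosphate dehydrogenase A and B, the chloroplast phosphoglycerate kinase and 1 hydroxypyruvate reductase, the last being also the 1 that remained at 0.4. These are counts out of 160 members with a read. Among all 43,302 unigenes with a read, 579 were lower at 0.2 and 52 at 0.4.

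Counted reads came to 17,800,062 in CK and 26,938,918 in CH, a depth at which members with more than 1,000 reads have narrow counting intervals while none of those with fewer than 10 reads was called. Chlorophyll a-b binding proteins, which mark the green cells of the leaf, also took up less of CH. Their 52 unigenes held 3.66% of CK and 1.71% of CH reads. Of the 50 with a read, 12 fell and 0 rose, against 4.28% lower and 2.48% higher among all unigenes with a read. Of the 15 with at least 1,000 reads, 11 fell, against 6.56% lower and 3.73% higher among all unigenes with as many reads. The median log2 value of these 15 was −1.43. Unigenes with a best hit to fungi, oomycetes, algae or other protists, a count that leaves out animal hits, held 0.197% and 0.295% of reads. The part of either in the values of the carbon-fixation unigenes was not tested. The list of senescence-associated proteins had 2 unigenes, which gave 0 reads in CK and a single read in CH, and so no usable signal.

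**Figure D2:**
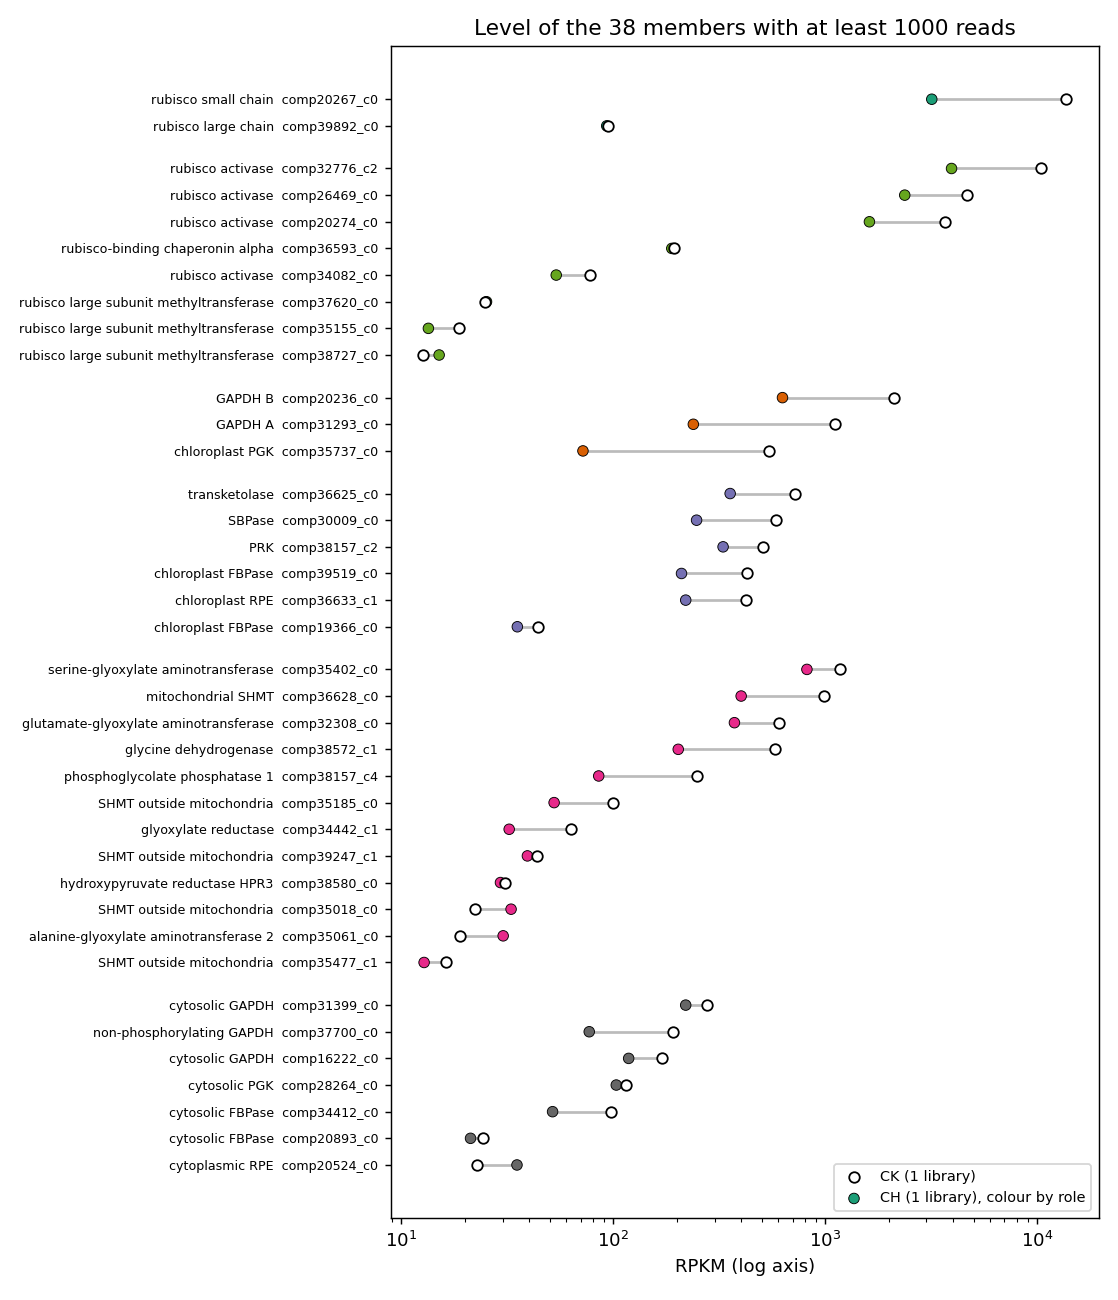
Level of the 38 members with at least 1,000 reads in RPKM on a log axis, with CK as open and CH as filled circles, 1 library each, in blocks from the rubisco chains at the top through rubisco activation and assembly, reduction, regeneration and photorespiration to the forms outside the chloroplast. In 33 of 38 the filled circle lies to the left of the open one, and the longest line belongs to the chloroplast phosphoglycerate kinase.

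Rubisco consists of a small chain encoded in the nucleus and a large chain encoded in the chloroplast genome. The most abundant small-chain unigene (comp20267_c0) stood at 13,705 RPKM in CK, from 255,350 reads, and at 3,177 RPKM in CH, from 89,953 reads. It fell 4.30-fold (4.26 to 4.33; log2 −2.11), and moved from rank 2 to rank 9 among all unigenes by RPKM. It carried 99.7% of the small-chain reads in CK and 99.0% in CH, so the other 10 small-chain unigenes add little. Of these, comp73875_c0 also fell, by 3.18-fold (1.43 to 7.56) on 21 reads of CK and 10 of CH, a call lost with TMM, with the median of ratios and with the exact binomial test. None of the rest was called. The most abundant of them, comp32636_c0, had 341 and 456 reads and a ratio of 0.884 (0.766 to 1.02). Next came comp36691_c0, with 212 and 263 reads and a ratio of 0.820 (0.681 to 0.987). A lower ratio of 0.538 (0.418 to 0.690) was that of comp29202_c0, with 145 and 118 reads.

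The large chain (comp39892_c0) stood at 94.6 RPKM in CK and 93.0 in CH, from 2,873 and 4,284 reads. Its ratio of 0.985 had an interval from 0.940 to 1.03, which holds no change, and its log2 value of −0.02 turned positive with the scalings TMM and median of ratios. The small and the large chain are joined in equal number in the enzyme, but of their main unigenes only that of the small chain was called. The libraries were made from RNA caught on oligo(dT) beads, and transcripts of the chloroplast genome mostly lack the poly(A) tail that the beads bind. How far the large-chain value follows the chloroplast transcript was not tested.

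Rubisco activase removes tightly bound sugar phosphates from the active site of rubisco. Its main unigene (comp32776_c2) stood at 10,438 RPKM in CK, from 341,065 reads, and at 3,938 RPKM in CH, from 195,207 reads. It fell 2.64-fold (2.63 to 2.66). A further activase unigene (comp20274_c0) fell 2.26-fold (2.22 to 2.29), from 3,667 to 1,614 RPKM. The one between them in level (comp26469_c0) missed the fold limit by little, with 4,662 RPKM in CK and 2,369 in CH, a 1.96-fold lower value (1.93 to 1.98). The 3 were among the 11 most abundant unigenes of CK. The next (comp34082_c0) was much rarer, at 77.6 and 53.7 RPKM, and was not called. Among the 10 activase unigenes with fewer reads, comp30661_c0 (107 and 62 reads) and comp23703_c0 (76 and 56 reads, its best Nr hit naming no genus) fell 2.61-fold (1.89 to 3.63) and 2.05-fold (1.44 to 2.95). These unigenes can share reads, so the split among them is uncertain. The 14 activase unigenes together held 2.47% of CK reads and 0.996% of CH reads.

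None of the 16 unigenes for proteins that fold or modify rubisco or regulate its transcription was called. Among all unigenes with a read 4.28% fell and 2.48% rose, so 0 of 16 does not set these proteins apart. The alpha subunit of the chaperonin that binds the large chain (comp36593_c0) stood at 194 RPKM in CK and 189 in CH. Its log2 value of −0.04 turned to 0.01 with TMM and 0.04 with the median of ratios. The 3 unigenes named as the beta subunit had too few reads to compare, 5 in CK and 9 in CH together. The same holds for the 1 unigene named as a regulator of rubisco transcription, with 3 reads and 1 read. Of the 5 unigenes named as methyltransferases of the large chain, the most abundant (comp37620_c0) stood at 24.9 and 25.2 RPKM. A further one (comp38727_c0) was higher in CH, at 12.6 and 15.1 RPKM, with a ratio of 1.26 (1.14 to 1.38). Another (comp35155_c0) was lower, at 18.7 and 13.4 RPKM.

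In the reduction step, phosphoglycerate kinase phosphorylates the product of rubisco and glyceraldehyde-3-phosphate dehydrogenase reduces it with NADPH. The chloroplast phosphoglycerate kinase (comp35737_c0) stood at 541 RPKM in CK and 71.8 in CH, from 20,871 and 4,201 reads. It fell 7.52-fold (7.27 to 7.77; log2 −2.91), the largest difference among the 38 members with at least 1,000 reads. The A subunit of the dehydrogenase (comp31293_c0) went from 1,109 to 238 RPKM and fell 4.65-fold (4.58 to 4.73). The B subunit (comp20236_c0), whose tail takes part in the light regulation of the enzyme, went from 2,109 to 628 RPKM and fell 3.35-fold (3.31 to 3.40). All 3 unigenes of the reduction step with at least 1,000 reads thus fell by more than 3-fold. Among all unigenes with as many reads, 6.56% fell at the 2-fold limit of the call. In rank by RPKM the A subunit moved from 64 to 400 and the B subunit from 25 to 119.

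The 6 abundant unigenes of ribulose-bisphosphate regeneration had log2 values between −1.24 and −0.33. Of these 6, 3 fell, against 6.56% of all unigenes with at least 1,000 reads. Sedoheptulose-1,7-bisphosphatase (comp30009_c0), an enzyme particular to the cycle, went from 583 to 247 RPKM and fell 2.36-fold (2.30 to 2.42). The chloroplast fructose-1,6-bisphosphatase (comp39519_c0) went from 426 to 209.6 RPKM and fell 2.03-fold (1.97 to 2.09). Transketolase (comp36625_c0), which moves carbon pairs between sugars, went from 719 to 355 RPKM and fell 2.02-fold (1.99 to 2.05). The last 2 sat at the limit of the call, and both calls were lost with TMM or median-of-ratios scaling.

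The chloroplast ribulose-phosphate 3-epimerase (comp36633_c1), which turns xylulose phosphate into ribulose phosphate, stood at 424 and 219 RPKM. Its 1.93-fold lower value (1.87 to 1.99) lay just short of the limit. Phosphoribulokinase (comp38157_c2), which makes the acceptor of rubisco, stood at 509 and 329 RPKM. Its log2 value was −0.63, while its reads were 1.94-fold lower (1.91 to 1.98). The deposited effective length of this unigene differed between the libraries. It was the only member with at least 1,000 reads whose log2 value differed by more than 0.1 between the RPKM and the reads. A second chloroplast fructose-1,6-bisphosphatase (comp19366_c0), with 1,062 and 1,292 reads, stood at 44.3 and 35.2 RPKM. In all, 15 members with at least 1,000 reads belonged to rubisco, its activase and the chloroplast enzymes of the cycle. Of these, 9 fell, or 60.0%, against 6.56% of all unigenes with as many reads. All 15 had a log2 value below 0, as had 3,233 of those 7,322 unigenes.

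**Figure D3:**
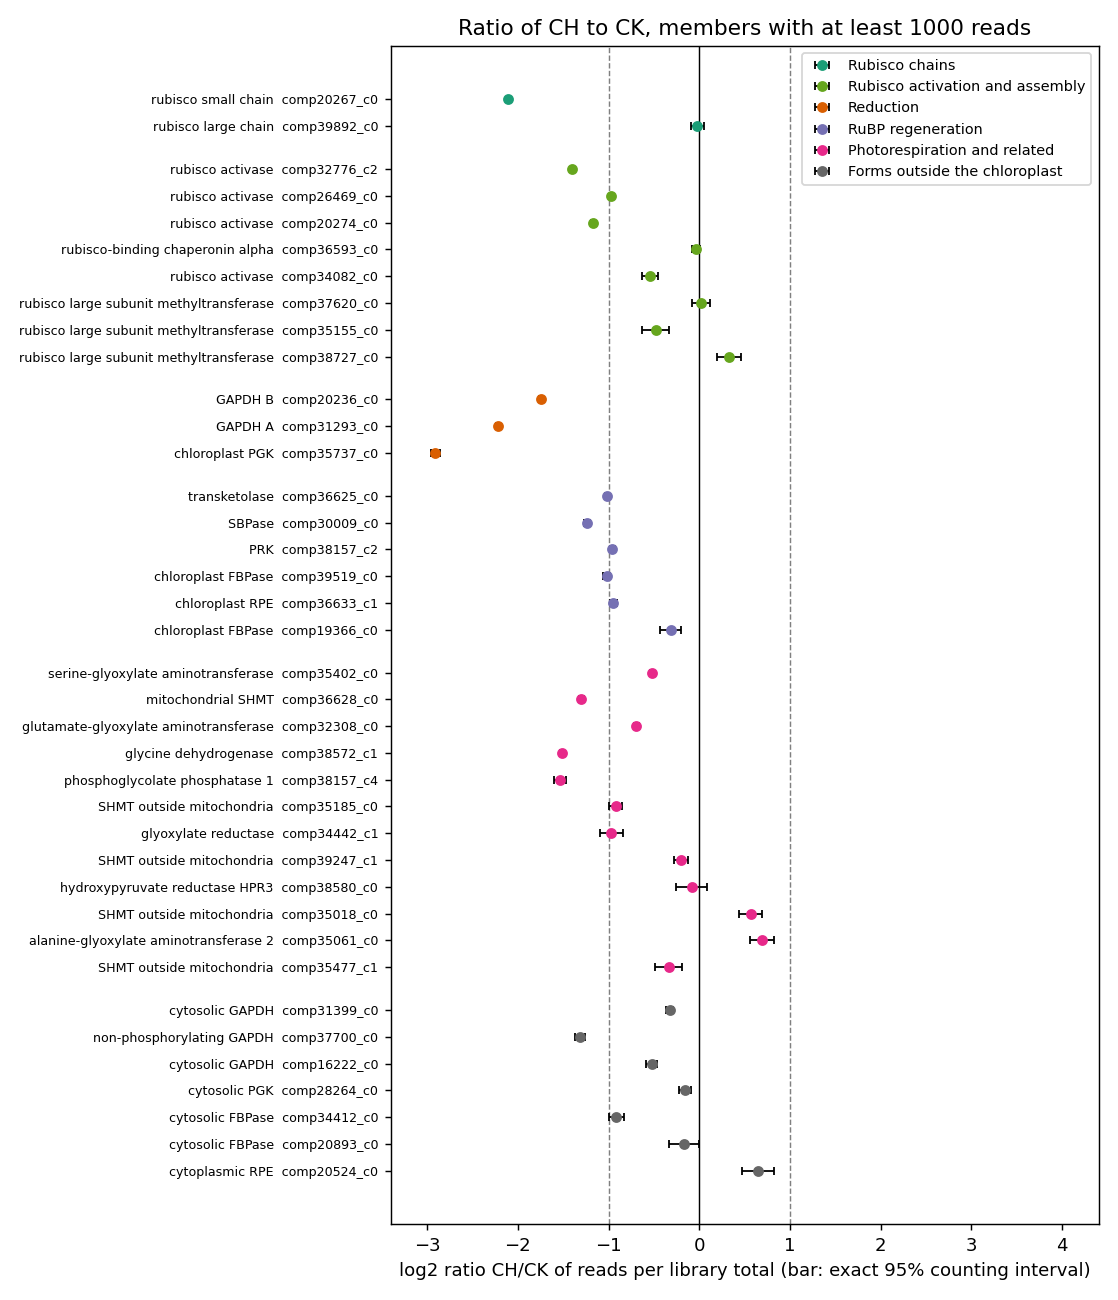
Log2 ratio of reads per library total, CH over CK, of the 38 members with at least 1,000 reads, with the exact 95% counting interval as a bar and colours for the roles. Dashed lines mark 2-fold. The chloroplast phosphoglycerate kinase lies furthest left, followed by the A subunit of the dehydrogenase and the rubisco small chain, 5 of the 6 regeneration unigenes lie near the left dashed line and comp19366_c0 to its right, and 4 members lie to the right of 0 with their whole interval.

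The photorespiration role also takes in related enzymes, such as serine hydroxymethyltransferases outside the mitochondrion. It leaves out glycolate oxidase and the peroxisomal hydroxypyruvate reductase, which the search words missed. Of its 12 members with at least 1,000 reads, 3 fell, or 25.0%, against 6.56% of all such unigenes. Their counting interval lay below a ratio of 1 for 9, above it for 2 and across it for 1. The 2 above it were alanine-glyoxylate aminotransferase 2 (comp35061_c0) and serine hydroxymethyltransferase 3 (comp35018_c0). A further 3 members with fewer reads also fell. The abundant enzymes that fell were those of the first step of photorespiration in the chloroplast and of its glycine steps in the mitochondrion. Phosphoglycolate phosphatase (comp38157_c4), which opens the pathway, went from 249 to 85.2 RPKM and fell 2.91-fold (2.78 to 3.04). It shares its component number in the assembly with phosphoribulokinase, so reads between them may have been divided. The P protein of glycine dehydrogenase (comp38572_c1), which decarboxylates glycine, went from 579 to 202 RPKM and fell 2.86-fold (2.81 to 2.91). Mitochondrial serine hydroxymethyltransferase 1 (comp36628_c0), which makes serine from glycine, went from 989 to 401 RPKM and fell 2.46-fold (2.42 to 2.51). A minor mitochondrial unigene of the same enzyme (comp28136_c1) also fell, with 77 and 46 reads. The 2 unigenes of its own component, comp28136_c0 and comp28136_c2, had 107 and 89 reads and 80 and 106 reads and were not called.

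The peroxisomal aminotransferases, which turn glyoxylate into glycine, were lower by less. Glutamate-glyoxylate aminotransferase (comp32308_c0) stood at 602 RPKM in CK and 372 in CH, 1.62-fold lower (1.59 to 1.65). Serine-glyoxylate aminotransferase (comp35402_c0), the most abundant of the photorespiratory members, stood at 1,175 and 818 RPKM, 1.43-fold lower (1.41 to 1.45). Neither reached the fold limit. In the other direction lay alanine-glyoxylate aminotransferase 2 (comp35061_c0), which is placed in the mitochondrion by its name. It stood at 18.8 RPKM in CK and 30.2 in CH, and its ratio was 1.62 (1.48 to 1.77) without a call.

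The unigenes matched to hydroxypyruvate reductase differed widely from each other. Of the 3 unigenes matched to hydroxypyruvate reductase HPR3, comp28427_c0 had 750 reads in CK and 21 in CH. Its level went from 35.1 to 0.65 RPKM, and it fell 54.1-fold (35.1 to 87.8; log2 −5.76), more than any other member called. The second, comp38580_c0, had 471 and 672 reads and stood at 30.8 and 29.3 RPKM, with a log2 value of −0.07 that turned positive with the median of ratios. The third, comp36326_c0, had 63 and 80 reads. The unigene that fell had a level near that of the second in CK and was nearly missing in CH. Glyoxylate reductase 2 of the chloroplast (comp27005_c0), which detoxifies glyoxylate, went from 19.1 to 8.07 RPKM and fell 2.36-fold (2.02 to 2.77). Glyoxylate reductase 1 (comp34442_c1) stood at 63.3 and 32.2 RPKM, 1.96-fold lower (1.80 to 2.13), just short of the limit.

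Serine hydroxymethyltransferases outside the mitochondrion, which supply one-carbon units, ranged from lower to higher in CH and none of the 9 was called. The most abundant, named serine hydroxymethyltransferase 4 (comp35185_c0), stood at 99.6 and 52.5 RPKM, 1.89-fold lower (1.80 to 1.99). The unigenes named serine hydroxymethyltransferase 7 (comp39247_c1 and comp35477_c1) had log2 values of −0.14 and −0.34. The chloroplast form, serine hydroxymethyltransferase 3 (comp35018_c0), was higher in CH, at 22.3 and 32.9 RPKM, with a ratio of 1.48 (1.36 to 1.62).

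Among the enzymes that the search words missed, 2 were missed through their names, since Swiss-Prot names glycolate oxidase as (S)-2-hydroxy-acid oxidase and the peroxisomal hydroxypyruvate reductase as glycerate dehydrogenase. Their unigenes were looked up after the files were read and are given as values only. The main glycolate oxidase (comp33416_c0), which makes glyoxylate in the peroxisome, stood at 1,443 RPKM in CK and 1,018 in CH, 1.42-fold lower (1.40 to 1.44). A second (comp38776_c3) stood at 309 and 341 RPKM, with a ratio of 1.12 (1.09 to 1.14). The glycerate dehydrogenase (comp31015_c0) stood at 569 and 249 RPKM, 2.28-fold lower (2.23 to 2.34). The main glycolate oxidase and both peroxisomal aminotransferases were thus lower by 1.42-fold to 1.62-fold. The folds of the mitochondrial P protein and serine hydroxymethyltransferase 1 were larger, at 2.86 and 2.46. The peroxisomal hydroxypyruvate reductase, at 2.28-fold lower, lay close to these mitochondrial enzymes, so the peroxisomal enzymes did not differ alike.

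Several enzymes of the cycle have relatives in the cytosol that serve glycolysis or sucrose synthesis, and the cytosolic members differed less between the libraries. The cytosolic glyceraldehyde-3-phosphate dehydrogenase (comp31399_c0) stood at 276 RPKM in CK and 219 in CH, 1.26-fold lower (1.22 to 1.29). The cytosolic phosphoglycerate kinase (comp28264_c0) stood at 115 and 103 RPKM, 1.11-fold lower (1.06 to 1.17). The cytosolic fructose-1,6-bisphosphatase (comp34412_c0), an enzyme of sucrose synthesis, stood at 97.6 and 51.6 RPKM, 1.88-fold lower (1.78 to 2.00). It was the cytosolic member nearest to the limit. The cytoplasmic epimerase (comp20524_c0) was higher in CH, at 22.6 and 35.1 RPKM, with a ratio of 1.56 (1.38 to 1.76).

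The 1 unigene of this kind that fell was the non-phosphorylating glyceraldehyde-3-phosphate dehydrogenase (comp37700_c0), a cytosolic enzyme in plants that makes NADPH from triose phosphate. It went from 192 to 76.9 RPKM and fell 2.49-fold (2.39 to 2.59). Its Swiss-Prot name states no compartment. Over the names that do, 10 of the 20 chloroplastic members with at least 1,000 reads fell, at a median log2 value of −0.996. Of the 6 cytosolic or cytoplasmic ones 0 fell, at a median of −0.26, and of the 3 mitochondrial ones 2 fell. Among all unigenes with as many reads 6.56% fell, so 0 of 6 does not set the cytosolic members apart. The difference between these groups was not tested.

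The balance between chloroplast and cytosolic transcripts differed between the libraries for some of these enzymes and hardly for others. Aldolase and triosephosphate isomerase, which the search words leave out, are given below. The non-phosphorylating dehydrogenase is not counted in the cytosolic form here. Summed over unigenes, the chloroplast phosphoglycerate kinase stood at 543 RPKM and the cytosolic form at 124 RPKM in CK, a level ratio of 4.36. In CH they stood at 73.0 and 111 RPKM, a ratio of 0.655, so that the cytosolic form was the more abundant. The A subunit of the chloroplast glyceraldehyde-3-phosphate dehydrogenase crossed the cytosolic form in the same way, with ratios of 2.48 in CK and 0.710 in CH. The B subunit stayed above it, at 4.71 and 1.85. For fructose-1,6-bisphosphatase the ratio hardly moved, from 3.96 to 3.51, since both forms were lower in CH. For the epimerase it went from 18.8 to 6.27, and for mitochondrial against other serine hydroxymethyltransferases from 5.58 to 3.03.

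**Figure D4:**
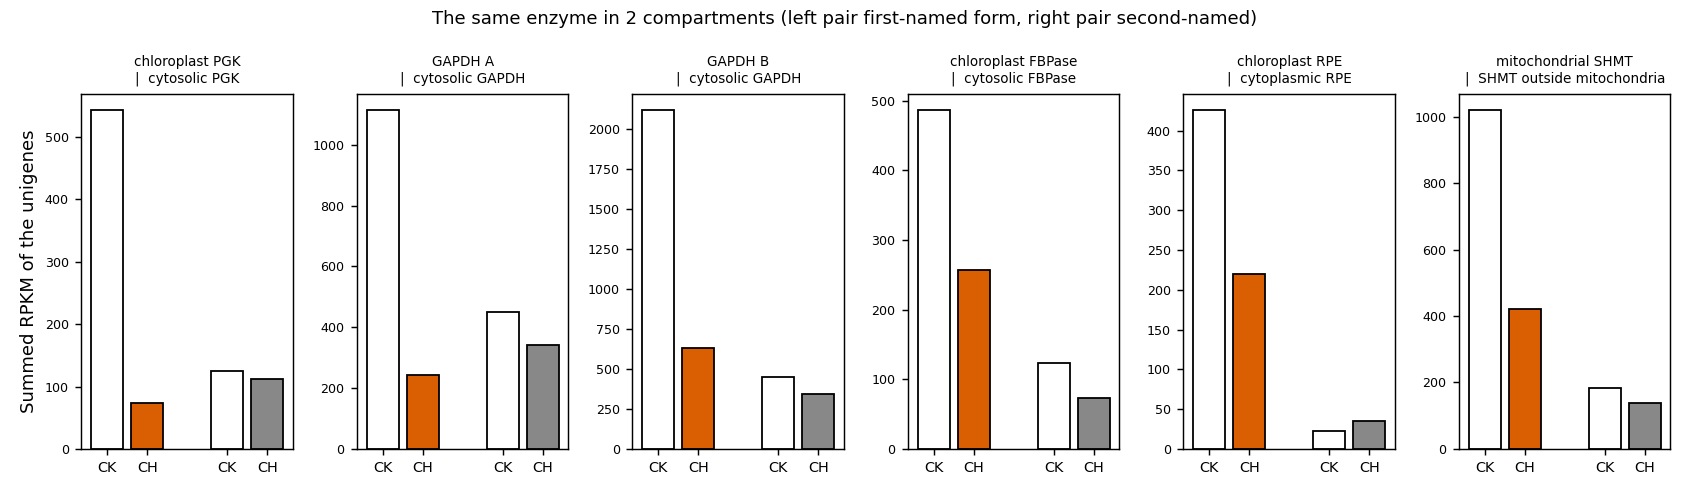
Summed RPKM of the unigenes of an enzyme in 2 compartments, with CK and CH bars of the first-named form on the left of each panel and of the second-named form on the right, on axes that start at 0. For phosphoglycerate kinase the chloroplast form goes from 543 RPKM in CK to 73.0 in CH while the cytosolic form stays at 124 and 111.

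Most of the 172 unigenes were short fragments with few reads. The 91 with fewer than 10 reads had a median length of 303 bp and held 121 reads in CK and 158 in CH together, and none was called. The 38 with at least 1,000 reads had a median length of 1,886 bp. For most enzymes 1 unigene carried the signal, such as that of phosphoribulokinase with 99.97% and 99.93% of the reads of its 4 unigenes. Of the 43 members with 10 or more reads but fewer than 1,000, 6 fell, or 14.0%, against 8.23% lower and 4.91% higher among all 16,331 unigenes in that range. Their median log2 ratio of reads was −0.41, and that of all such unigenes −0.07. By the genus of the best Nr hit, 149 members matched eudicots, 6 monocots, 4 fungi or oomycetes and 1 an alga or protist, and 12 hits named no genus. The genus Solanum gave the best hit of 43 members, and 42 of these had fewer than 1,000 reads, with 204 reads in CK and 228 in CH together. Restricted to eudicot hits, 18 members fell.

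The search words did not use Gene Ontology terms. Of the 38 with at least 1,000 reads, 24 carried the term chloroplast stroma, and 11 of these fell. Among 506 unigenes with the stroma term and as many reads that were not members, 14.2% fell and 2.96% rose, at a median log2 value of −0.19. The median of the 24 members with that term was −0.97. Whether members and other stroma proteins differ was not tested.

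Further enzymes and carriers of both pathways, which the search words leave out, were taken from a list of protein names. This list also caught 2 unigenes for methyltransferases of aldolase and 2 for mitochondrial gamma carbonic anhydrases, which are counted here. Of its 108 unigenes 105 had a read, and of these 11 fell (10.5%) and 4 rose (3.81%), against 4.28% and 2.48% of all unigenes with a read. Among the 32 with at least 1,000 reads, 9 fell (28.1%) and 2 rose (6.25%), against 6.56% and 3.73% of all such unigenes. Among those 32 the largest difference was that of a chloroplast carbonic anhydrase (comp32229_c0), which interconverts carbon dioxide and bicarbonate. It stood at 2,547 RPKM in CK and 84.1 in CH, from 61,934 and 3,104 reads, and fell 30.2-fold (29.1 to 31.3). Another carbonic anhydrase (comp34010_c0) went the opposite way, from 32.4 to 166 RPKM, and rose 5.14-fold (4.70 to 5.62). Yet another (comp25320_c0) stood at 323 and 163 RPKM and was not called.

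Aldolase joins triose phosphates into the sugar phosphates of regeneration. Its main chloroplast unigene (comp39385_c0) went from 4,623 to 1,912 RPKM and fell 2.41-fold (2.39 to 2.43). A far rarer chloroplast unigene, matched to aldolase 3 (comp39990_c0), rose from 52.3 to 105.6 RPKM, a log2 value of 1.01. Of the aldolases with few reads, 2 (comp32297_c2 and comp32297_c4), with 13 reads each in CK and 2 and 1 in CH, also passed the test as lower. A cytosolic aldolase (comp31023_c0) fell 2.49-fold (2.42 to 2.56), from 442 to 177 RPKM. Here a cytosolic form fell by a similar fold to the chloroplast one. The other cytosolic aldolase with at least 1,000 reads had a log2 value of −0.12 and was not called. CP12 is a small protein that binds phosphoribulokinase and glyceraldehyde-3-phosphate dehydrogenase in the dark. Ribose-5-phosphate isomerase (comp33421_c0), CP12 (comp28349_c0) and the triose phosphate translocator (comp29659_c0) had log2 values of −0.96, −0.76 and −0.98, short of the limit. Of their relatives with fewer reads, CP12-3 (comp27181_c0) was higher in CH, at 27.3 and 42.7 RPKM with a ratio of 1.58 (1.35 to 1.85), and the translocator of non-green plastids (comp31792_c0) had a log2 value of 0.08. Triosephosphate isomerase had −0.53 for the chloroplast form (comp34574_c0) and −0.44 for the cytosolic form (comp26130_c0).

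Other parts of the glycine cleavage system fell with the P protein. The T protein (comp30219_c0), an aminomethyltransferase, went from 697 to 233 RPKM and fell 2.98-fold (2.91 to 3.06), close to the 2.86-fold of the P protein. The H proteins comp35984_c2 and comp35984_c0, which carry the aminomethyl group, had log2 values of −1.44 and −1.12 and both fell. By reads they were 2.70-fold (2.52 to 2.90) and 1.86-fold lower (1.75 to 1.98). Dihydrolipoyl dehydrogenase (comp38563_c0), which also serves other mitochondrial complexes, was not called, at a log2 value of −0.37 from RPKM and 1.77-fold lower reads (1.72 to 1.84). For this enzyme too the effective length differed between libraries.

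Of the carriers and nitrogen steps, the plastidal glycolate/glycerate translocator (comp32603_c0) fell 2.57-fold (2.42 to 2.74) and the chloroplast dicarboxylate transporter 1 (comp28752_c0) fell 3.81-fold (3.55 to 4.10). The chloroplast dicarboxylate transporter 2.1 (comp29171_c0) and the more abundant tonoplast dicarboxylate transporter (comp39053_c1) were not called, at log2 values of −0.68 and 0.09. Ferredoxin-dependent glutamate synthase (comp34107_c0) takes part in recovering the ammonia set free by glycine decarboxylation. It fell 2.09-fold (2.04 to 2.13), a call that was lost with median-of-ratios scaling. Glycerate kinase (comp32211_c0), the last step of the pathway, stood at 52.3 and 51.3 RPKM. The main catalase (comp35139_c0), which removes the hydrogen peroxide made by glycolate oxidase, stood at 2,390 and 2,964 RPKM, with a ratio of 1.24 (1.23 to 1.25). The 2 further unigenes called higher matched organisms other than land plants and had few reads. A catalase (comp191149_c0, best hit to the alga Ectocarpus) had 56 reads in CH against 1 read in CK, which gave a ratio of 37.0 (6.37 to 1490). An aldolase (comp27562_c0, best hit to the fungus Batrachochytrium) had 0 and 24 reads, at least 5.29-fold higher against a floor of 3 reads in the library.

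**Figure D5:**
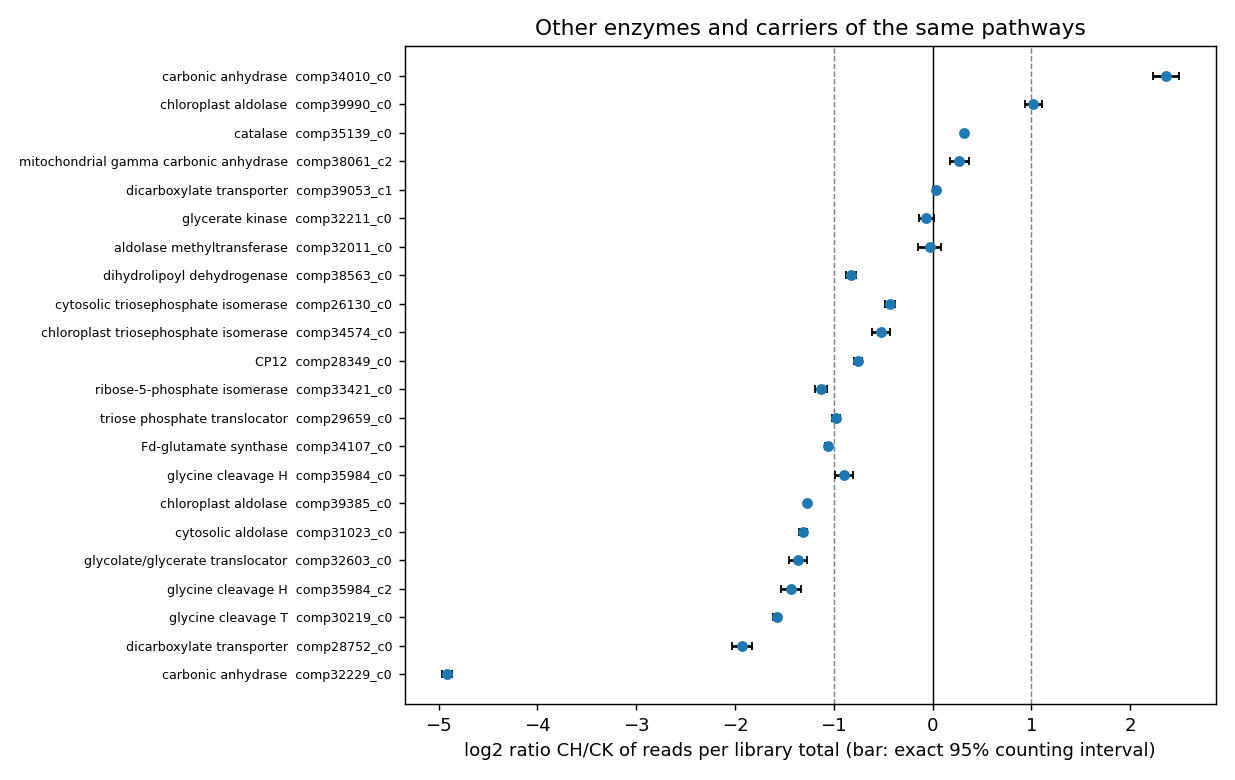
Log2 ratio of reads per library total, CH over CK, with the exact 95% counting interval, of 22 unigenes from the further list of protein names. The search words did not match them. Dashed lines mark 2-fold. The carbonic anhydrases comp32229_c0 and comp34010_c0 form the opposite ends, at 30.2-fold lower and 5.14-fold higher.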

How the data were processed

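RNA of 2 leaf libraries, CK and CH, was sequenced by the authors on an Illumina HiSeq instrument after selection on oligo(dT) beads, and the reads were assembled with Trinity into 46,533 unigenes. The authors deposited for each unigene an expected count per library, which is not normalized, with its effective length. The deposited RPKM was made by the authors from that count, the effective length and the library total. The deposited TPM has the same sum in both of the authors' tables and was not used. Annotation came from BLASTx at an E-value of 1e-05. The submitters' processing notes name DESeq. For the mapper and the counter, the program was not given in the sources used here.

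Expected counts were rounded to whole reads, with totals of 17,800,062 (CK) and 26,938,918 (CH). The 2-sided Audic-Claverie test was run on 43,302 unigenes with at least 1 read and adjusted by Benjamini-Hochberg, with a call at an adjusted p below 0.01 and a 2-fold RPKM ratio. For 0 reads in a library, the ratio was bounded with a floor of 3 reads. The script was checked on simulated data. Intervals cover counting error only, since the reads are not independent molecules.

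Members were found by the search words, and roles by protein name and compartment. Named were the most abundant unigene of each enzyme, all called members with a eudicot best hit and up to 5 other called ones, and from the further list the most abundant unigene of each protein group and all called ones with a eudicot hit. Others were named after their values were seen. The members and lists were chosen with earlier results of these data known. Alternatives were TMM and median-of-ratios scaling, a minimum of 10 reads, edgeR's exact test with assumed or blind variation, a binomial test, a 4-fold limit, eudicot hits only and pseudocounts of 0.1 and 1 on RPKM. Python 3.11.15, numpy 2.4.6, pandas 2.3.3, scipy 1.17.1, matplotlib 3.10.9, R 4.3.3 and edgeR 4.0.16 were used.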

Additional observations from a re-analysis of the deposited data

How the results depend on the processing

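The number of members called lower, 19, became 16 with TMM, 15 with the median of ratios, 19 with a minimum of 10 reads, 18 with the exact binomial test and 18 with eudicot hits only. TMM ended the calls of transketolase (comp36625_c0), chloroplast fructose-1,6-bisphosphatase (comp39519_c0) and a small-chain unigene (comp73875_c0), and the median of ratios also that of an activase unigene (comp23703_c0). The binomial test ended that of comp73875_c0. It became 5 with edgeR at an assumed coefficient of variation of 0.2, 1 at 0.4, 1 with a variation estimated blind to the groups (0.413) and 4 at a 4-fold limit. No member was called higher under any of these settings. Of the further pathway unigenes, the 11 lower became 3, 1 and 3 and the 4 higher became 3, 0 and 3 at 0.2, at 0.4 and at 4-fold. With TMM they were 11 and 5, and with the median of ratios 10 and 5, which ended the call of ferredoxin-dependent glutamate synthase (comp34107_c0). Over all unigenes, 1,854 lower became 579 at 0.2, 52 at 0.4 and 654 at 4-fold, while 1,075 higher became 495, 134 and 585, so that at 0.4 more unigenes were higher than lower. With reads on eudicot hits as the total, the members' share was 6.57% in CK and 2.50% in CH. Of the 37 unigenes named by rule, 21 were at least 2-fold lower, and between 18 and 21 with the scalings and pseudocounts. That rule names the 19 members called lower, so this count is largely set by the choice and adds no separate evidence. No called value changed sign. No paired analysis was possible because each group has 1 library, and for the same reason no replicate could be left out.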
